A study of Mus musculus with 4 samples.

Results

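The core of the Notch pathway was followed in mouse molar tooth germs exposed to TCDD (2,3,7,8-tetrachlorodibenzo-p-dioxin): the receptors Notch1 to Notch4, the ligands Jag1, Jag2 and Dll1, the glycosyltransferase Lfng and the target gene Hes1. Members were chosen by name, as all probe sets of the array whose annotation gave a single symbol from this list. This gave 12 probe sets for 8 of the 9 listed genes, out of 12422 probe sets and 8252 named genes. No probe set carried Jag1 as its single symbol, so its expression was not analysed here and Jag1 enters only the promoter search.

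The tooth germs were mandibular molar regions of NMRI embryos at embryonic day 14, kept in organ culture for 24 h in medium with 10% fetal calf serum. The control group received the solvent DMSO at 0.65%, and the exposed group received 1 µM TCDD, which had been dissolved in DMSO. Each group has 2 samples, each a pool of about 60 explants from 3 experiments hybridised to 1 murine U74v2A oligonucleotide array. The labels name no genetic change, and ascorbic acid is listed in the medium of DMSO replicate 2 alone. The explants contain dental epithelium, dental mesenchyme and whatever vessels, blood cells and neighbouring tissue were dissected with them. A lower signal in such bulk samples cannot be told apart from fewer cells of the type that makes the transcript.

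Notch receptors are cut on binding to a Jagged or Delta ligand on a neighbouring cell, and their intracellular part enters the nucleus, binds the DNA-binding protein RBPJ and turns on genes such as those of the Hes and Hey families of repressors. Fringe enzymes, among them Lfng, add sugars to the receptor and so change which ligand it answers to. In the tooth, Notch receptors and their ligands are known for complementary patterns in the layers of the dental epithelium and in the mesenchyme, and mice that lack Jag2 have malformed teeth. TCDD acts through the aryl hydrocarbon receptor, which binds DNA at sites with the core GCGTG. The comparison asks whether transcripts of these genes differ after exposure.

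Promoter sequence was looked up because the exposure acts through a DNA-binding receptor and because RBPJ sites mark direct Notch targets. RefSeq promoter entries of the GRCm38.p6 build matched 8 of the 9 listed genes, all but Hes1, in 9 windows of the 250 bases before a start site. The core GCGTG, searched on both strands, was present in 8 of the 9 windows and in 7 of the 8 genes, against 28.2% of 32851 windows of all genes. The members' windows were rich in G and C, at 56% to 87.2% with a median of 66%, against a median of 52.4% for all windows. Of the windows with at least 56%, the lowest member value, 49.1% held the core. That set shares only this lower bound with the members and is not matched to them in G and C. The RBPJ motif GTGGGAA, also searched on both strands, was present in 1 of the 9 windows, that of Lfng, against 5.42% of all windows. No match of one motif overlapped a match of the other. These matches are letters in a window and do not show binding.

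Windows are shown for Notch1, the only one with no match, for Notch3, a receptor with a single GCGTG core, and for Lfng, the only one with both motifs. They lie at chr2:26503823-26504072 on the minus strand, chr17:32166891-32167140 on the minus strand and chr5:140607091-140607340 on the plus strand, and capitals mark the matches.
Notch1: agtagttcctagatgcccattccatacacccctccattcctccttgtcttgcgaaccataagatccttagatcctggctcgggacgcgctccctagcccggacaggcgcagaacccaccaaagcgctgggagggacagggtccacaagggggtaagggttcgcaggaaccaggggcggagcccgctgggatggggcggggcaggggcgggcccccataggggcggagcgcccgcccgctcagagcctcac
Notch3: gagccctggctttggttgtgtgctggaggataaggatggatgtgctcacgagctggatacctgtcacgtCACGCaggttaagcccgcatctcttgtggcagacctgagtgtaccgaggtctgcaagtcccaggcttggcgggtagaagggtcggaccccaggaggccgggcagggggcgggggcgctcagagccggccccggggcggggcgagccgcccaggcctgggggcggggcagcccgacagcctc
Lfng: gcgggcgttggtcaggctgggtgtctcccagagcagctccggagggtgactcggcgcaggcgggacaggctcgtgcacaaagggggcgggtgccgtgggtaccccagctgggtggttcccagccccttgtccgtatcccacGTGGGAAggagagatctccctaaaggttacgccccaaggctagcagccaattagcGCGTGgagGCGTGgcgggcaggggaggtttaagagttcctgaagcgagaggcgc
In Lfng the RBPJ match began 109 bases before the start site and the GCGTG matches 54 and 46 bases before it. In Notch3 the single core began 181 bases before the start site.

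Signals are those of the MAS5 algorithm, scaled by the authors to a target of 100 on each array, and the number of arrays limits their precision. The table holds no detection calls, so it is not known which of them exceeded background. Differences are of log2(signal + 16), TCDD minus DMSO, a scale that understates changes of dim probe sets, and each comes with its standard error (SE) and 95% interval from limma. The main fit took the 5783 probe sets whose signal averaged 50 or more over the 4 arrays, and p-values were adjusted over all of them by the Benjamini-Hochberg method. Of the 12 member probe sets, 4 reached that mean, for Notch1, Notch2, Notch3 and Hes1. The other 8 were taken from the same model without the filter, over 12422 probe sets. The p-values measure the spread between these pools, since the labels do not say whether the pools of a group came from separate litters.

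The exposure itself was visible in Cyp1a1 and Cyp1b1, cytochrome P450 genes induced through the aryl hydrocarbon receptor, which rose by 2.88 ± 0.22 and 2.28 ± 0.21 (SE, log2). Tooth tissue was visible in Msx1 and Barx1, homeobox genes of the dental mesenchyme, at 541 to 705 and 179 to 301 over the 4 arrays, and in Epcam, an epithelial adhesion gene, at 63.5 to 115.1. Pax9 and Vim, other mesenchymal genes, were under the filter, at 33.1 to 70.5 and 17.2 to 30. The keratin genes Krt5 and Krt14 were at 10.8 or less on every array.

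No member of the Notch core passed the test. Of the 4 probe sets in the filter, 0 had a limma adjusted p under 0.05 and 0 an unadjusted p under 0.05, against 0.0692% and 2.59% of all 5783 probe sets. On all 4 the arrays of the groups overlapped, whereas they did not overlap in 29.8% of all probe sets. The differences ran from -0.27 to 0.2 with a median of -0.05, beside 0.01 over all probe sets. Their intervals reached from -0.75 for Hes1 to 0.67 for Notch2, which as ratios of signal + 16 are 0.59 and 1.6.

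**Figure D1:**
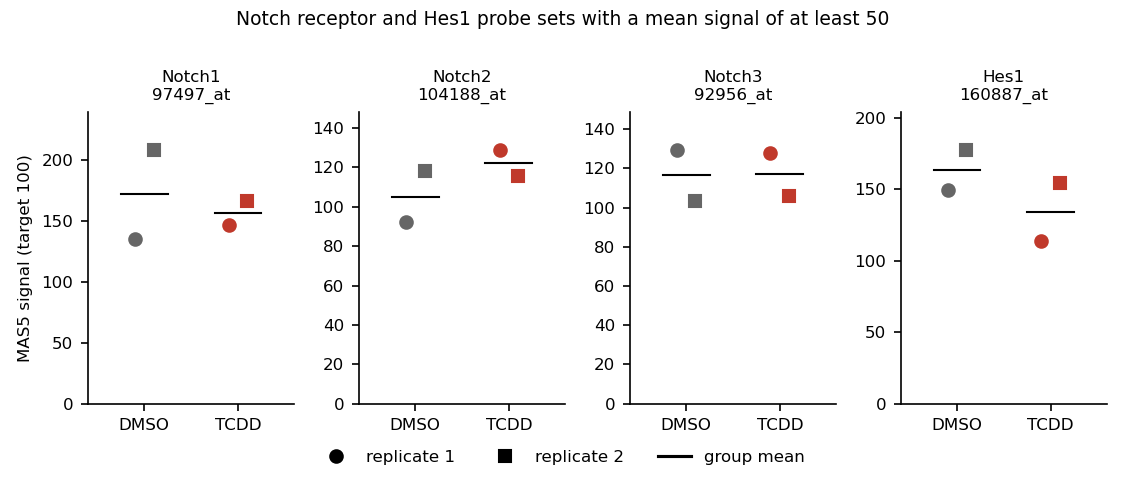
MAS5 signal (vertical axis, linear from 0, target 100) of the 4 member probe sets with a mean of at least 50, for DMSO (grey) and TCDD (red). Circles are replicate 1, squares replicate 2 and lines the group means, and in each panel the ranges of the groups overlap.

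Among the receptors, Notch1 (97497_at) had signals of 135.7 and 208.6 in DMSO against 147.2 and 166.2 in TCDD. Both TCDD arrays lay between the DMSO arrays. The difference was -0.10 ± 0.23 (SE, n = 2 each), with an interval from -0.61 to 0.42 and a limma adjusted p of 0.997. It came to 0.18 without DMSO replicate 2, the brightest of the 4 arrays for this probe set. A dimmer Notch1 probe set (162204_r_at) had signals of 33.2 and 37.5 in DMSO against 23.4 and 38.8 in TCDD. Here TCDD replicate 1 was the lowest array and TCDD replicate 2 the highest, and the difference of -0.14 ± 0.29 (SE) turned to 0.10 without TCDD replicate 1.

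Notch2, a receptor paralogous to Notch1 (104188_at), had signals of 92.2 and 118 in DMSO against 128.9 and 115.7 in TCDD. DMSO replicate 1 stood lowest and TCDD replicate 1 highest, with the replicate 2 arrays close together between them. The difference was 0.20 ± 0.22 (SE, n = 2 each), with an interval from -0.28 to 0.67 and a limma adjusted p of 0.997. It was 0.04 without DMSO replicate 1 and 0.35 without DMSO replicate 2. A second Notch2 probe set (101342_at) was far below the filter, with 9.3 and 5.8 in DMSO and 9 and 14.3 in TCDD. Its difference of 0.23 ± 0.19 (SE) had the same sign, and 3 of its 4 values were among those stored as day serials in the deposited table.

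Notch3, a receptor known for its role in the mural cells of vessels (92956_at), had the smallest difference of the 12 probe sets. Its signals were 129.5 and 103.5 in DMSO and 127.9 and 106.1 in TCDD. The TCDD arrays lay inside the DMSO range, and in each group replicate 1 was the brighter array. The difference was 0.01 ± 0.22 (SE, n = 2 each), with an interval from -0.47 to 0.49 and a limma adjusted p of 0.997. As ratios of signal + 16, this interval runs from 0.72 to 1.4. Of 6 listed mural cell markers 5 had a probe set and 2 were in the filter, with summed signals of 407 and 362 in DMSO against 469.5 and 331 in TCDD, and none was at 0. The brightest, Acta2, had 204.3 and 145.5 in DMSO and 314.4 and 118.1 in TCDD. Rgs5, below the filter, was lower on both TCDD arrays, with 37 and 46.1 in DMSO and 20.6 and 26.6 in TCDD. Acta2, Mcam, Pdgfrb and Des overlapped, and Des was also a listed muscle marker. The part of these markers in the Notch3 signal was not tested.

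Notch4, a receptor known mainly from endothelium, was dim on both of its probe sets. On 92652_at it had signals of 20.3 and 25.2 in DMSO against 25.1 and 21.5 in TCDD, a difference of 0.02 ± 0.26 (SE). On 93928_f_at it had 17.5 and 5.6 in DMSO and 2.8 and 2 in TCDD, and both TCDD arrays were below both DMSO arrays. This was the only one of the 12 member probe sets without overlap, where 26.2% of all probe sets with a mean under 50 were lower in TCDD without overlap. Its difference of -0.55 ± 0.21 (SE), with an interval from -1.04 to -0.05, had an unadjusted limma p of 0.0343 and did not pass, with an adjusted p of 0.979. It was -0.23 without DMSO replicate 1 and -0.86 without DMSO replicate 2, and the suffix _f marks a probe set that can match several related transcripts. Of its 4 values 3 had been stored as day serials, as had all 4 on 92652_at.

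Endothelial markers, read beside Notch4, differed in both directions. Of 10 listed, 9 had a probe set and 6 were in the filter, and none was at 0. Their summed signal was 807 and 777 in DMSO and 757 and 775 in TCDD. Pecam1, an endothelial adhesion gene, had 107 and 49.8 in DMSO and 42.5 and 43.3 in TCDD, a difference of -0.61 ± 0.30 (SE). It reached the filter through DMSO replicate 1, its only array above 50. Emcn, which encodes endomucin, had 95.8 and 104.2 in DMSO and 131.6 and 132.2 in TCDD, at 0.35 ± 0.20 (SE). Cdh5, the cadherin of vessels, overlapped, with 163.6 and 180 in DMSO and 198.1 and 160 in TCDD. None of the 6 passed the test, and their part in the Notch4 signals was not tested.

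The ligands were below the filter on all their probe sets. Jag2, a Jagged ligand (92510_at), had signals of 17 and 6.4 in DMSO against 12.6 and 33.4 in TCDD. TCDD replicate 2 stood above the other 3 arrays, and TCDD replicate 1 lay between the DMSO arrays. The difference was 0.47 ± 0.33 (SE, n = 2 each), with an interval from -0.30 to 1.24 and a limma adjusted p of 0.979, and it was 0.07 without TCDD replicate 2. As ratios of signal + 16, the interval runs from 0.81 to 2.36.

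Dll1, a Delta-like ligand (92931_at), had signals of 21.8 and 5.8 in DMSO against 27.9 and 19.6 in TCDD. DMSO replicate 2 was the low array, and DMSO replicate 1 lay between the TCDD arrays. The difference was 0.46 ± 0.32 (SE, n = 2 each), with an interval from -0.27 to 1.20 and a limma adjusted p of 0.979. It was 0.06 without DMSO replicate 2. All 4 of these values had been stored as day serials. The other Dll1 probe set (161634_r_at) had signals from 0.7 to 3.9 and a difference of 0.06 ± 0.12 (SE), at a level where the offset of 16 leaves little room for any difference.

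Lfng, the fringe enzyme whose promoter window held both motifs (160601_at), had signals of 30.5 and 27.9 in DMSO against 19.5 and 36.3 in TCDD. Both DMSO arrays lay between the TCDD arrays. The difference was -0.07 ± 0.30 (SE, n = 2 each), with an interval from -0.76 to 0.62 and a limma adjusted p of 0.994. It was 0.21 without TCDD replicate 1 and 0.04 after quantile normalization, so the probe set had no settled direction.

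**Figure D2:**
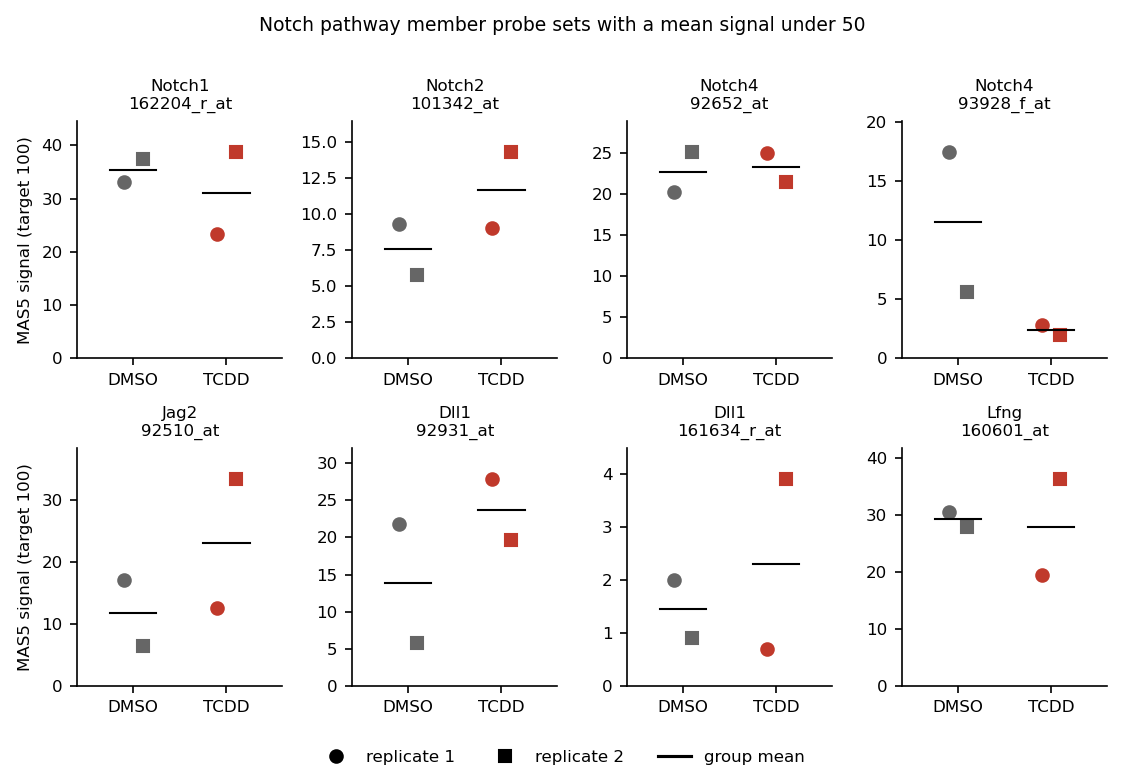
MAS5 signal (vertical axes, linear from 0, each with its own range) of the 8 member probe sets with a mean under 50, for DMSO (grey) and TCDD (red). Circles are replicate 1, squares replicate 2 and lines the group means, and the ranges of the groups are apart only on the Notch4 probe set 93928_f_at.

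Hes1, a basic helix-loop-helix repressor and a direct target of Notch signalling (160887_at), was the member with the largest difference among the 4 in the filter. It had signals of 149.3 and 177.4 in DMSO against 113.9 and 154 in TCDD. TCDD replicate 1 was the lowest array, and TCDD replicate 2 lay between the DMSO arrays, so 3 of the 4 array pairs had the lower signal in TCDD. The difference was -0.27 ± 0.22 (SE, n = 2 each), with an interval from -0.75 to 0.22 and a limma adjusted p of 0.997. Leaving out 1 array gave values between -0.46 and -0.07, with the smaller size without TCDD replicate 1. As ratios of signal + 16, the interval runs from 0.59 to 1.16.

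**Figure D3:**
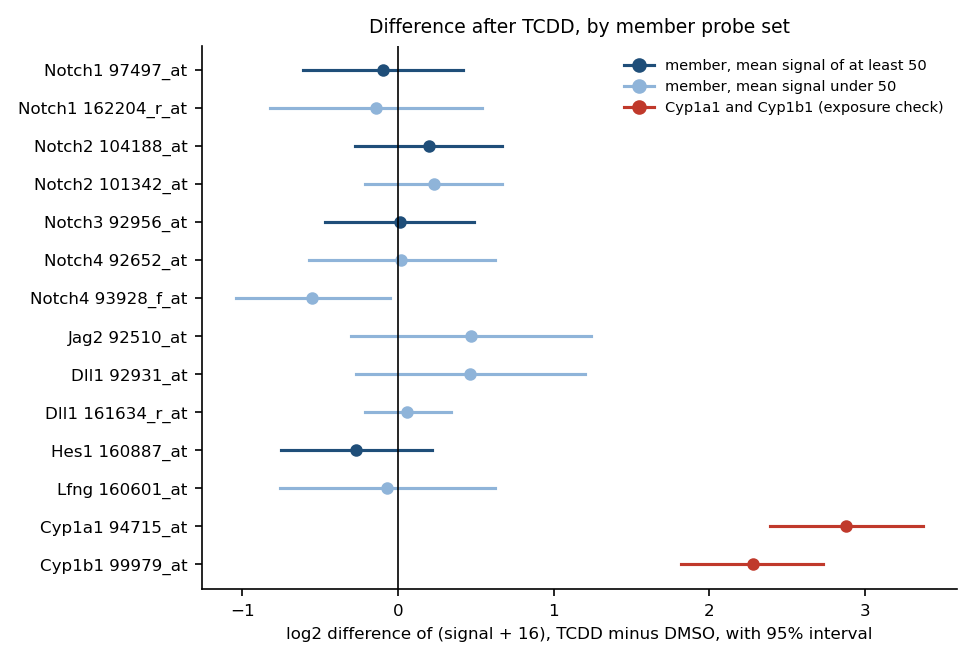
Differences of log2(signal + 16), TCDD minus DMSO (horizontal axis), of the 12 member probe sets and, in red, of Cyp1a1 and Cyp1b1; points are limma estimates and lines 95% intervals. The interval of each member except the Notch4 probe set 93928_f_at includes 0, while Cyp1a1 and Cyp1b1 lie at 2.88 and 2.28.

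The gap between the pools of a group was set beside the difference between the groups. On each of the 12 probe sets the larger of the within-group gaps, replicate 1 against replicate 2 on the log2 scale, exceeded the difference between the groups. This was so for 82.7% of all probe sets in the filter and for 79.7% of those below it, so it does not set the members apart. The gap is between single arrays and the difference between group means, so the gap tends to be the larger. The gap was 0.57 between the DMSO arrays for Notch1 (97497_at) and 0.79 between the TCDD arrays for Jag2. Of the 8 probe sets below the filter 5 were higher and 3 lower in TCDD, 1 had an unadjusted limma p under 0.05 against 4.85% of all probe sets with a mean under 50, and 0 passed the adjusted threshold, as did 0 of all 6639 such probe sets. Their median difference was 0.04, beside -0.05 over all 12422 probe sets without the filter.

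**Figure D4:**
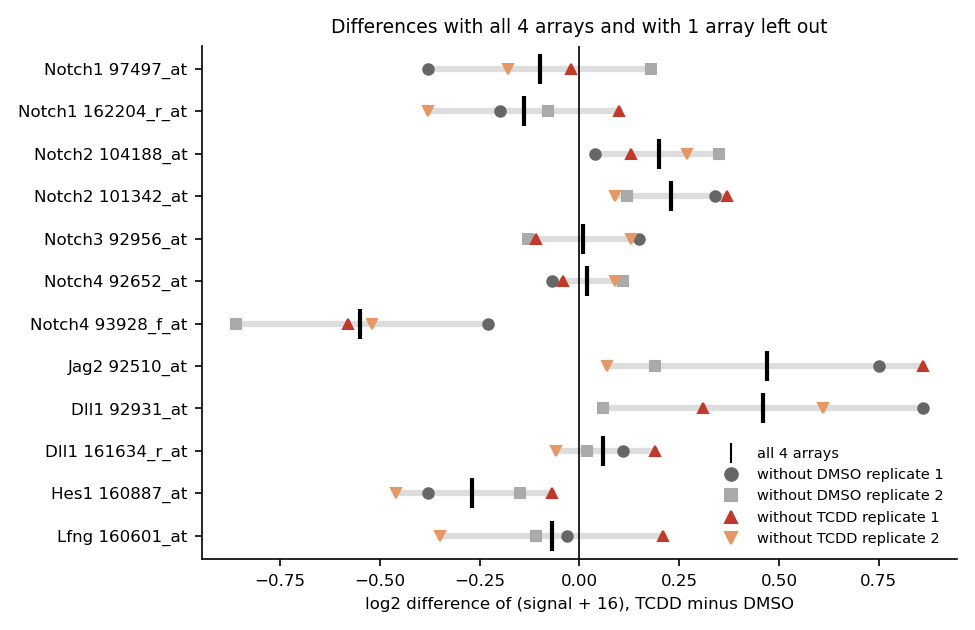
Differences of log2(signal + 16), TCDD minus DMSO (horizontal axis), of the 12 member probe sets with all 4 arrays (black bar) and with each array left out in turn (symbols; the grey band spans them). The values of both Notch1 probe sets, Notch3, Notch4 (92652_at), Dll1 (161634_r_at) and Lfng fall on both sides of 0, and those of Hes1 stay below it, between -0.46 and -0.07.

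Markers of the tissue layers and of macrophages were read beside these values. Of 12 epithelial markers 11 had a probe set and 9 were in the filter, with summed signals of 2143 and 2935 in DMSO against 3000.2 and 3347 in TCDD. Both TCDD sums were above both DMSO sums, with the desmosome genes Dsp, at 936.4 and 1346.5 in DMSO and 1379.2 and 1566.5 in TCDD, and Perp, at 393.2 and 592.1 in DMSO and 756.8 and 738 in TCDD, as the brightest members. The sums rest largely on Dsp and Perp. Cdh1, which encodes E-cadherin, was lower on both TCDD arrays, with 170.3 and 141.1 in DMSO and 101.2 and 120.5 in TCDD. Krt14, below the filter, was lower too. Trp63, Cldn4, Shh, Krt18, Krt8, Epcam and Krt5 overlapped between the groups. All 12 mesenchymal markers had a probe set and 10 were in the filter, with summed signals of 4326 and 4847 in DMSO against 4802 and 5235 in TCDD. All 9 macrophage markers had a probe set and 8 were in the filter. These 8 had differences above 0, with a median of 0.32, where 2957 of all 5783 probe sets in the filter were higher in TCDD. Adgre1, below the filter, went the other way, with 8.5 and 18.9 in DMSO against 6.1 and 10.2 in TCDD. The summed signals of the 9 were 832 and 727 in DMSO against 1003.5 and 974 in TCDD. Lyz2, Ctss and C1qb had unadjusted limma p-values of 0.0293, 0.0255 and 0.0444, where 2.59% of all probe sets in the filter were under 0.05. The unadjusted limma p-values of the other macrophage markers in the filter ran from 0.11 to 0.835. That of the epithelial marker Perp was 0.0154. Skeletal muscle markers summed to 876 and 384 in DMSO against 1140 and 410 in TCDD, high on both replicate 1 arrays. The sums of the mesenchymal and of the skeletal muscle markers overlapped between the groups. So did those of mural cell markers, at 407 and 362 in DMSO against 469.5 and 331 in TCDD. Sums of red blood cell markers, at 3452 and 3689 in DMSO against 2536 and 3454 in TCDD, overlapped only barely. Their brightest member, Hba-a1, was lower on both TCDD arrays, with 3378.4 and 3580.1 in DMSO and 2440.9 and 3349.1 in TCDD. Alas2 and Hbb-bh1 overlapped, and 14.6% of all probe sets in the filter were lower without overlap. Nerve and glia sums overlapped too, at 619 and 610.5 in DMSO against 635 and 523 in TCDD. None of the markers of these lists passed the adjusted threshold or was at 0. Their part in the receptor and Hes1 signals was not tested.

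The other genes of the pathway did not pass the test either. Of 61 listed genes 35 had a probe set and 24 were in the filter, 12 of them higher and 12 lower in TCDD. Of the 24, 0 had a limma adjusted p under 0.05 and 1 had an unadjusted p under 0.05, against 2.59% of all probe sets in the filter. The groups did not overlap in 7 of the 24, 3 higher and 4 lower, against 29.8% of all probe sets in the filter, 15.3% higher and 14.6% lower. Of the 11 genes below the filter 0 passed, and 2 had an unadjusted limma p under 0.05, against 4.85% of all probe sets with a mean under 50. Their groups did not overlap in 8, 6 lower and 2 higher, against 33.1% of those probe sets, 26.2% lower and 6.88% higher. The median difference of the 24 was 0, beside 0.01 over all probe sets.

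Of the other fringe genes, Mfng (100508_at) had signals of 69.2 and 65.8 in DMSO against 32.6 and 51.8 in TCDD. Both TCDD arrays were lower, with a difference of -0.54 ± 0.25 (SE, n = 2 each), an interval from -1.09 to 0.01 and a limma adjusted p of 0.997. With means of 67.5 in DMSO and 42.2 in TCDD, Mfng reached the filter through the group where it was higher. Rfng, the third fringe gene, differed by -0.03 ± 0.21 (SE).

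The proteases that cut the receptor and their subunits were represented by 4 genes in the filter, 1 higher and 3 lower in TCDD, with differences from -0.23 to 0.21. The higher one was Adam10 (97947_at), at 0.21, but its other probe set in the filter (100751_at) was at -0.08. Psenen (94249_at), which encodes a subunit of the gamma-secretase that releases the intracellular part, had 138.8 and 158.6 in DMSO and 119.7 and 129.4 in TCDD. Both TCDD arrays were lower, at -0.23 ± 0.20 (SE), and the limma adjusted p was 0.997.

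In the nucleus, Rbpj (101902_at), which encodes the DNA-binding partner of the cut receptor, had signals of 99.9 and 80.9 in DMSO against 60.4 and 79.2 in TCDD. Both TCDD arrays were lower, with a difference of -0.31 ± 0.23 (SE, n = 2 each), an interval from -0.82 to 0.20 and a limma adjusted p of 0.997. TCDD replicate 2 and DMSO replicate 2 were nearly equal. Snw1 (104158_at), which encodes a co-regulator known to bind the Notch intracellular domain, had 64.4 and 101.1 in DMSO and 113.6 and 138.7 in TCDD. It was the 1 gene of the 24 with an unadjusted limma p under 0.05, at 0.0466, with a difference of 0.55 ± 0.24 (SE) and an adjusted p of 0.997. A dimmer Snw1 probe set (161195_i_at) had 22.8 and 22.1 in DMSO and 14.7 and 17.5 in TCDD, the other way round.

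Among corepressors, 6 genes reached the filter, 3 higher and 3 lower, with differences from -0.15 to 0.23. Tle3 (104623_at), a Groucho-type corepressor gene that works with Hes proteins, had 212.9 and 235.4 in DMSO and 198.3 and 202.6 in TCDD, a difference of -0.15 ± 0.20 (SE). Ctbp1, another corepressor gene (101081_at), had 535.8 and 625.3 in DMSO and 641.3 and 626.9 in TCDD, at 0.13 ± 0.18 (SE). The groups did not overlap in either gene, but DMSO replicate 2 and TCDD replicate 2 of Ctbp1 were almost the same.

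Genes of the Hes and Hey families other than Hes1 showed no difference past the test. Hey1 (95671_at), a repressor gene of the Hes-related family, had signals of 151.7 and 282.1 in DMSO against 178.9 and 217.2 in TCDD. As for Notch1, both TCDD arrays lay between the DMSO arrays, and the difference was -0.07 ± 0.27 (SE). Hes6 differed by -0.05 ± 0.23 (SE). Of the 4 genes of receptor turnover and endocytosis in the filter 3 were higher and 1 lower. Numb (99955_at), which encodes an inhibitor of the receptor, had 48 and 71.7 in DMSO and 78 and 75.5 in TCDD, at 0.31 ± 0.24 (SE) with a limma adjusted p of 0.997. Another Numb probe set (161912_r_at), below the filter, had 86.8 and 30.8 in DMSO and 46.7 and 28.9 in TCDD.

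**Figure D5:**
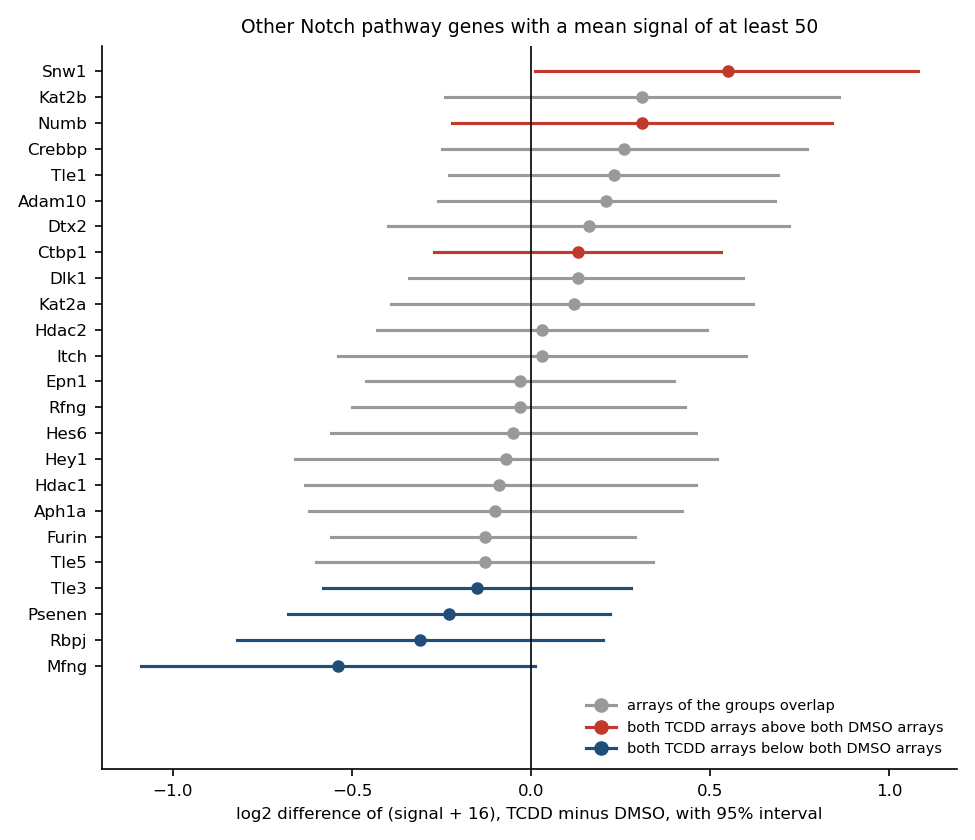
Differences of log2(signal + 16), TCDD minus DMSO (horizontal axis), of the 24 other Notch pathway genes in the filter, in order of value; points are limma estimates and lines 95% intervals. Colours mark whether the arrays of the groups overlapped (grey) or not (red higher, blue lower in TCDD), and the differences run from -0.54 for Mfng to 0.55 for Snw1.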

How the data were processed

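The deposited values are MAS5 intensity signals on a linear scale, 1 per probe set and array, made by the authors with Affymetrix Microarray Suite 5.0 and scaled to a target of 100, per the labels. Of the 49952 cells, 18515 (37.1%) held a day serial in place of a signal and were turned back as day.month. The mean trimmed by 2% at each end was then 100.05 on each array. Gene symbols came from the annotation of the platform, and 10839 of 10855 with a single symbol matched the gene table of GRCm38.p6. Control probe sets (66) were left out.

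Signals were analysed as log2(signal + 16) by lmFit and trended eBayes (limma 3.58.1, R 4.3.3), without a block, at a threshold of 0.05. The procedure was run on simulated arrays with known fold changes, as a check of the code. How often it recovered small changes is not reported here. Alternatives were offsets of 1 and 64, no filter or a filter at 100, quantile normalization, no trend, the replicate number as a block, day serials set to 16, and each array left out. Every member probe set was named. Of the other pathway genes, represented by their brightest probe set, those in the filter whose groups did not overlap were named, up to 10 by size. Rfng, Hey1, Hes6, Adam10, marker genes and second probe sets of Adam10, Snw1 and Numb were named after their values were seen. The members and lists were chosen with earlier results of these data known.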

Additional observations from a re-analysis of the deposited data

How the results depend on the processing

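In each alternative 0 member probe sets and 0 of the other pathway genes passed the adjusted p, and the lowest limma adjusted p of a member under any of them was 0.236. The replicate block raised the count over all probe sets from 4 to 32, and no filter lowered it to 2; leaving out 1 array gave 2 to 5, with 2 without DMSO replicate 1 and without TCDD replicate 2. Under the block the member count stayed 0. The labels do not link pools by number, though replicate 1 minus replicate 2 correlated across 5783 probe sets between the groups (Pearson r = 0.381, across genes). Total RNA also ran with the number, at 11 µg for both replicate 1 pools against 7 µg (DMSO) and 8 µg (TCDD) for replicate 2. Its part was not tested. Directions that turned were those of Notch2 (101342_at) with day serials set to 16 (-0.18) and of Lfng with quantile normalization (0.04) and with serials set to 16 (0.35). On both probe sets 3 of the 4 values had been day serials. Setting them to 16 made these values equal, so that alternative cannot decide the direction. With 1 array left out, the differences ranged from -0.38 to 0.18 for Notch1 (97497_at), from -0.38 to 0.1 for its probe set 162204_r_at, from -0.13 to 0.15 for Notch3, from -0.07 to 0.11 for Notch4 (92652_at), from -0.06 to 0.19 for Dll1 (161634_r_at) and from -0.35 to 0.21 for Lfng. The cause was not tested. No detection call says whether the dim probe sets of Jag2, Dll1, Lfng and Notch4 exceeded background.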

Other observations

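Of the other pathway genes 11 were below the filter, and these were looked at after their values were seen. The groups did not overlap in 8 of them, 6 lower and 2 higher in TCDD, where 33.1% of all probe sets with a mean under 50 did not overlap, 26.2% lower and 6.88% higher. The 6 were Dtx1, Hes2, Hes3, Hes5, Adam17 and Rbpjl. Hes5 (162069_at), a Notch target of neural and other progenitors, had signals of 32.7 and 18.3 in DMSO against 10.9 and 9.2 in TCDD, a difference of -0.65 ± 0.26 (SE, n = 2 each) with a limma adjusted p of 0.979. Hes3 (97156_at) had 42.9 and 17.4 in DMSO and 17.2 and 5.3 in TCDD, and Hes2 (101724_at) had 38.1 and 35.5 in DMSO and 24.2 and 31.4 in TCDD. Of the 4 values of Hes5 and of Hes3, 3 each had been stored as day serials. In the filter, Hes1, Hes6 and Hey1 overlapped between the groups. A second Hes5 probe set (161051_at) overlapped, with 6.6 and 9 in DMSO and 8.5 and 3.2 in TCDD. None of the 11 passed the limma test.

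Ccn3 (100507_at), which encodes a secreted protein reported to bind Notch1, was higher in both TCDD arrays, with 5.3 and 10.3 in DMSO and 30.7 and 15.9 in TCDD. The difference was 0.71 ± 0.26 (SE, n = 2 each), with a limma adjusted p of 0.979, and all 4 values had been stored as day serials.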
